A study of Mus musculus with 6 samples.

Results

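The genes described here are the nuclear-encoded subunits of the respiratory chain and the ATP synthase, complexes I to V, in the fetal mouse cerebral cortex. They were taken by symbol, as Nduf with a, b, c, s or v and a number (complex I), Sdha to Sdhd (complex II), Uqcr (complex III), Cox4 to Cox8 (complex IV) and Atp5 (complex V), without names that end in -ps. A member also had to reach 1 TPM on average across the 6 samples. TPM is a measure of RNA abundance that allows for transcript length and has the same total in every sample. Of the 85 table entries with such a symbol, 79 were members, among 14518 named genes that passed the same minimum and were tested. Complex I held 36 members, complex II 4, complex III 8, complex IV 14 and complex V 17. The members nearest to the minimum were Cox7a1, with a mean of 1.56 TPM, and Cox4i2, with 1.67 TPM. Below it lay Cox7b2, with a mean of 0.105 TPM, Cox6a2, with 0.023 TPM, and Cox6c2, Cox8b, Cox8c and a second entry named Atp5o, all listed at 0 in every sample.

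RNA-Seq was performed on fetal cortices collected at E14.5, directly after the dams had been exposed for 6 h. In the Sevo group (3 samples) the dams breathed 2.5% sevoflurane, an inhaled anaesthetic, with 97.5% O2, and in the Ctr group (3 samples) they breathed 100% O2. All mice were C57BL/6 with no transgene or mutation named. The labels do not say how many fetuses or litters made up a sample, so p-values measure the spread between these samples, which may be technical. The anaesthetic and the lower O2 share came together and cannot be told apart. In whole tissue, fewer cells of a type and less RNA per cell cannot be told apart either.

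Complexes I and II take electrons from NADH and succinate and pass them to ubiquinone, complex III passes them to cytochrome c, and complex IV passes them to oxygen. Complexes I, III and IV pump protons across the inner mitochondrial membrane, and complex V, the ATP synthase, uses the returning protons to make ATP. Of complexes I, III, IV and V, 13 subunits are encoded in mitochondrial DNA. All other subunits, and all of complex II, are encoded in the nucleus, and NRF1 and GABP (an ETS factor) are known to bind promoters of many of these genes.

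Promoters are shown for 6 members described below whose windows hold a motif of NRF1 or of ETS factors, to let these motifs be seen beside the values. They are examples chosen with the motifs known, and the windows of Ndufa6, Ndufs7 and Cox7a2l, which also had higher levels in all Sevo samples, hold neither motif. They are the 250 bases before the RefSeq start on GRCm38.p6, and capitals mark the core of the NRF1 motif (GCGCA and GCGC with 1 base of any kind between them) and CCGGAAG, an ETS motif, on either strand. Ndufb4 (chr16:37654369-37654618, minus strand), Cox6a1 (chr5:115348959-115349208, minus strand) and Atp5g2 (chr15:102671048-102671297, minus strand) had higher levels in all Sevo samples than in any Ctr sample. Ndufs3 (chr2:90904722-90904971, minus strand) and Sdha (chr13:74350241-74350490, minus strand) had lower levels, and Atp5k (chr5:108434400-108434649, minus strand), whose groups overlapped, had the lowest log2 fold change of complex V.
Ndufb4: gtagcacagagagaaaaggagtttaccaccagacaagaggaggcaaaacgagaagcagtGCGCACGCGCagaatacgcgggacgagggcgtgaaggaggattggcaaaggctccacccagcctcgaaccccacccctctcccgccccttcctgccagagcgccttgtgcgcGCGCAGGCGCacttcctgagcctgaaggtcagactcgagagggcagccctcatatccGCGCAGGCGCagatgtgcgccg
Cox6a1: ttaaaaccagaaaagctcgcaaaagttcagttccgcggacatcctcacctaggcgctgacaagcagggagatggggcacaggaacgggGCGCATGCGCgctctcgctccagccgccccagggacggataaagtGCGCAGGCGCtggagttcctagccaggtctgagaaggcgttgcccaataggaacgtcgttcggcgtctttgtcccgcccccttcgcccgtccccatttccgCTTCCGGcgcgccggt
Atp5g2: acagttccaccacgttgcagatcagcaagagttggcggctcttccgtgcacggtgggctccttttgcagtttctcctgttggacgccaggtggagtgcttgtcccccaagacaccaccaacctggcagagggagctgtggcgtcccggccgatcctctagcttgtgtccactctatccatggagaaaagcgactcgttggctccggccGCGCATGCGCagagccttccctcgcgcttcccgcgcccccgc
Ndufs3: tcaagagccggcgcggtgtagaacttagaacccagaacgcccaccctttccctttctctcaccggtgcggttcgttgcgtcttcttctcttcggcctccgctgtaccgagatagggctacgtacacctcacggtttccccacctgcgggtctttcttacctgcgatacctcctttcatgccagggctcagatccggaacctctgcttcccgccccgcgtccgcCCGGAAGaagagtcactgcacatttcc
Sdha: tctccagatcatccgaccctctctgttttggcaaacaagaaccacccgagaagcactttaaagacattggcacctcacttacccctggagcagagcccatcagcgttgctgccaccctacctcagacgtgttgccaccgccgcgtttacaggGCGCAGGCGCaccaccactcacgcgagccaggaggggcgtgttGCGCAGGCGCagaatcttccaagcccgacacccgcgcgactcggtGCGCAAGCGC
Atp5k: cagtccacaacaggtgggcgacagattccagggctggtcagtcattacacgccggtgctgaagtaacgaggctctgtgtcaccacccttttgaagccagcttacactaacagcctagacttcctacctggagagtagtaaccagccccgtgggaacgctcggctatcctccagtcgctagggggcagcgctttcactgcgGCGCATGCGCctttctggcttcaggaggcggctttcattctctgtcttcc

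RefSeq promoters matched 64 of the 79 members. A gene was counted if any of its windows held the letters. The NRF1 letters were found in 13 of these 64 members (20.3%), against 9.35% of the 10349 tested genes with a window and 4.23% of all 27025 genes with one. The ETS letters were found in 18.8% of the members, against 15.5% of the tested genes and 7.83% of all. The letters GGGCGG, the core of the SP1 motif, were found in 34.4% of the members, fewer than the 65.0% of tested genes and near the 35.4% of all genes. TATAAA was found in 7.81% of the members, 7.58% of the tested genes and 14.3% of all. No motif searched contains another, and each was searched on both strands. Ndufb4, with the highest log2 fold change of all members, and Sdha, with lower levels in every Sevo sample, each held the NRF1 letters 3 times. The median log2 fold change was 0.074 over the 13 members with the NRF1 letters and 0.030 over the 51 without. With and without the ETS letters it was 0.043 and 0.038, and with and without GGGCGG 0.033 and 0.041. For TATAAA it was 0.0725 over the 5 members with it and 0.034 over the 59 without.

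The members were abundant, varied little within a group and had short transcripts. Their median level was 202.5 TPM, above that of 95.5% of the tested genes, and 65 of the 79 had a mean of at least 100 TPM. The spread within a group (SD) had a median of 6.91% of the mean over the members, against 14.6% over all tested genes. Their exons, joined per gene in GENCODE M21, had a median length of 1587 bases, against 4171 over all tested genes. They lay on 19 chromosomes, 3 of them on chromosome X. Exons of 27 members overlapped those of another gene, on the opposite strand for 24, and without strand information reads of overlapping genes cannot be told apart.

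One library stood apart in these genes. The 79 members took 2.10%, 2.07% and 2.09% of all TPM in the Sevo samples, against 2.06%, 2.07% and 1.83% in the Ctr samples. Ctr replicate 3 was the lowest of the 6 samples in 55 members (69.6%), against 11.6% of all tested genes. In the same library, entries without a gene name took 3.32% of the TPM, against 0.753% to 1.74% in the other 5 samples. With these entries removed and the rest rescaled, the members' median log2 fold change of Sevo over Ctr was 0.040, with 51 of 79 above 0, against 0.041 and 51 as deposited. Medians of the complexes and their counts above 0 are therefore given with and without Ctr replicate 3, as are the values of some single members.

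The tissue markers fitted the label, with cortex markers summing to 2750 to 3475 TPM in every sample. Ctr replicate 2 also held choroid plexus markers, with a summed level of 756 TPM against 2.10 to 23.3 TPM in the other samples, and meningeal markers, with 105 TPM against 5.02 to 24.3 TPM. Erythroid markers summed to 2694, 4231 and 3168 TPM in the Sevo samples and to 2199, 3903 and 2674 TPM in the Ctr samples. Endothelial markers summed to between 44.3 and 69.3 TPM, microglial markers to between 23.6 and 33.6 TPM and ganglionic eminence markers to between 59.4 and 165 TPM. None of the choroid plexus, meningeal or endothelial markers was at 0 in all samples, and the part of these cells in the results below was not tested.

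No subunit passed an adjusted p of 0.05 between the Sevo and Ctr groups, and on the deposited scale the members' median log2 fold change was above 0 and that of all genes below it. The median log2 fold change on log2(TPM + 1) was 0.041 over the 79 members, with quartiles of -0.027 and 0.157. Over all tested genes it was -0.061, with quartiles of -0.239 and 0.128. A value above 0 was found in 51 of the 79 members, against 41.1% of all tested genes. The members also varied less, since only Ndufs3 lay beyond 0.5 in either direction, against 11.3% of all tested genes.

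At an unadjusted p under 0.05 by limma, 12 of 79 members were higher in the Sevo group, where 6.56% of all tested genes were higher, and 1 was lower, where 12.8% were lower. In 19 members all Sevo samples lay above all Ctr samples, against 9.43% of all tested genes, and in 3 all lay below, against 17.7%. By limma's adjusted p, 1 of all tested genes (0.00689%) was called at 0.05 and no member was, the lowest adjusted p of a member being 0.106, for Ndufb4. The split of all genes depended on the scaling. It was 953 higher and 1859 lower as deposited, 1689 and 892 with each sample centred on its median, 1306 and 1240 after quantile normalization, and 1216 and 1295 with a correction for gene length. The members' own split was 12 higher and 1 lower as deposited, and under those scalings 24 and 0, 18 and 0, and 10 and 2. The members' median was 0.14 with median centring, 0.065 after quantile normalization and 0.046 with the length correction, against 0.037, -0.0096 and -0.0089 over all genes, so the sign of the all-gene median depended on the scaling. The members lay above all genes by 0.10 as deposited and by 0.055 with the length correction.

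**Figure D1:**
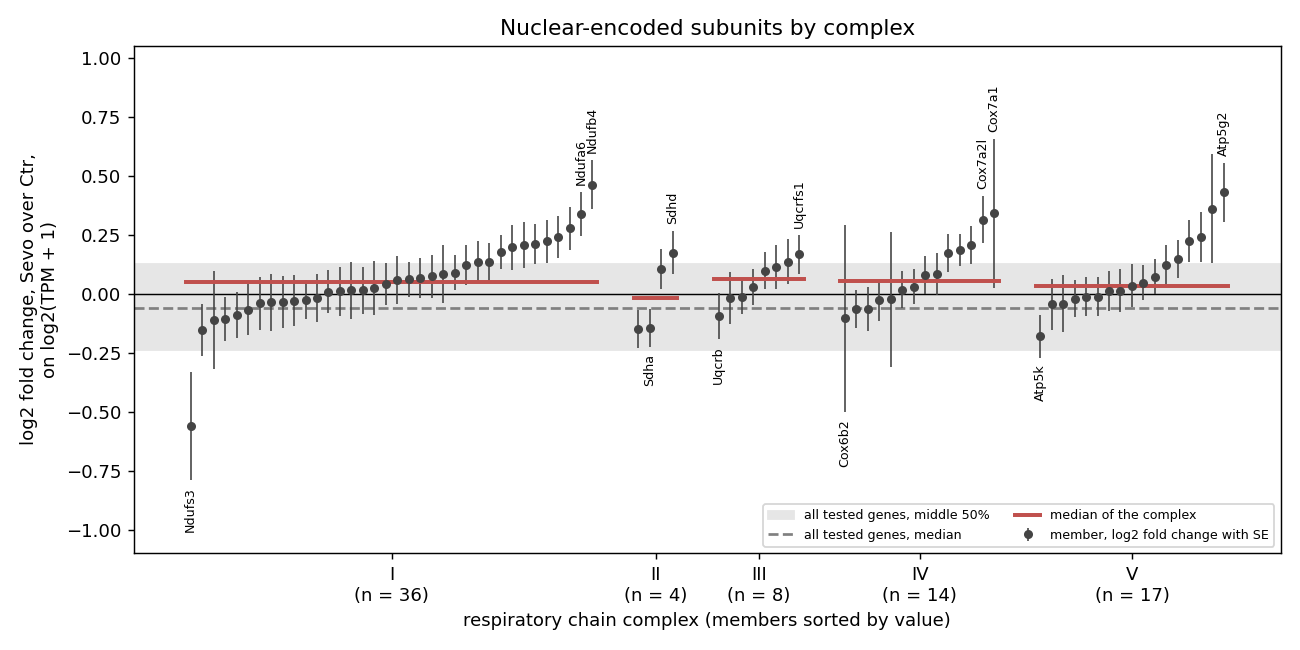
Log2 fold change of Sevo over Ctr on log2(TPM + 1) for the 79 members, sorted within complexes I to V; points with bars are values with their SE, red lines the medians of the complexes, and the dashed line and grey band the median and the quartiles of all 14518 tested genes. The medians of complexes I, III, IV and V lie between 0.034 and 0.062, above the all-gene median of -0.061, and Ndufs3 lies apart at -0.56.

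Leaving out single samples changed these counts. Without Ctr replicate 3 the members' median was -0.0087, 38 of 79 lay above 0, and at the same unadjusted p 5 were higher and 0 lower, where 4.36% of all tested genes were higher and 7.48% lower. The median of all genes stayed at -0.061 without this library. Without Ctr replicate 1, 6 members were higher and 0 lower, and without Sevo replicate 3, 5 were higher and 1 lower. Leaving out Ctr replicate 2, the library with choroid plexus markers, gave a median of 0.079, with 12 members higher and 0 lower. All 12 members that were higher in the full data had groups without overlap, so their values had to stay above 0 in each of these subsets.

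**Figure D2:**
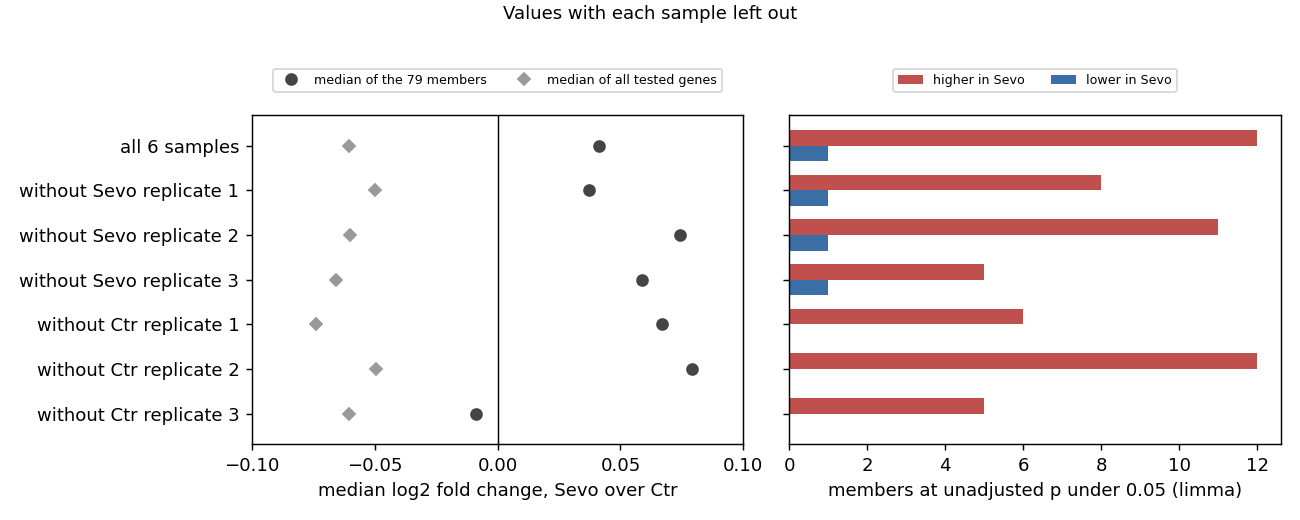
Left, median log2 fold change of Sevo over Ctr for the 79 members (circles) and for all tested genes (diamonds), with all 6 samples and with each sample left out; right, members at an unadjusted p under 0.05 from limma, higher (red) or lower (blue) in Sevo. The members' median is below 0 only without Ctr replicate 3 (-0.0087) and lies between 0.037 and 0.079 in the other rows.

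In summed level, each complex overlapped between the groups except complex IV. The complex I members summed to 6106, 5917 and 6215 TPM in the Sevo samples, against 5871, 6020.4 and 5245 TPM in the Ctr samples. The complex IV members summed to 5265, 5110.3 and 5084 TPM in the Sevo samples, against 4996, 4962 and 4462 TPM in the Ctr samples, so that the groups did not overlap. A sum weighs abundant members most, and Cox4i1 and Cox6a1, the most abundant of complex IV, did not overlap between the groups either. Without Ctr replicate 3, only 6 of the 14 complex IV members had a log2 fold change above 0. Complex V had the highest sum, at 6903 ± 81.8 TPM in the Sevo group and 6666 ± 460.2 TPM in the Ctr group (SD, n = 3 each). Complex III had 2251 ± 47.5 TPM in the Sevo group and 2169 ± 152 TPM in the Ctr group. Complex II had 508 ± 11.5 TPM in the Sevo group and 505 ± 23.0 TPM in the Ctr group. In all 5 complexes Ctr replicate 3 had the lowest sum of the 6 samples, and the higher Sevo means of complexes V, III and II rested on it. The other Ctr samples had 6932 TPM each in complex V, 2247 and 2266 TPM in complex III, and 521 and 516 TPM in complex II, so that their mean was above that of the Sevo group in each.

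**Figure D3:**
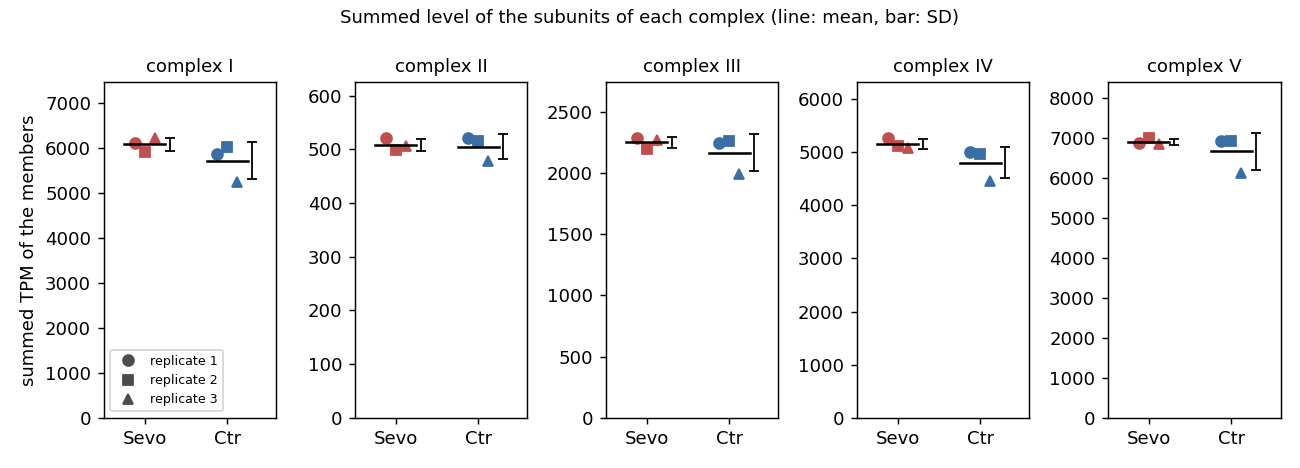
Summed TPM of the members of each complex in each sample, Sevo left of Ctr, with symbols for the replicates, lines for the means and bars for the SD. Ctr replicate 3 (triangle) is the lowest sample in every panel, and only in complex IV do all Sevo samples (5084 to 5265 TPM) lie above all Ctr samples (4462 to 4996 TPM).

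Complex I, the NADH dehydrogenase, held 7 of the 12 members that were higher at an unadjusted p under 0.05 and the only one that was lower. Its 36 members had a median log2 fold change of 0.050, with 24 above 0, and of -0.019 without Ctr replicate 3, with 17 above 0. The 7 core subunits, which carry the flavin, the iron-sulphur clusters and the quinone site, had a median of 0.089 (0.079 without Ctr replicate 3), with 3 higher at an unadjusted p under 0.05 and 1 lower. Of the 29 other members, accessory subunits around this core, 4 were higher and 0 lower, with a median of 0.041, and of -0.030 without Ctr replicate 3, with 13 above 0. Over all tested genes 6.56% were higher and 12.8% lower.

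Ndufb4, an accessory subunit of the membrane arm, had 29.6, 31.7 and 29.6 TPM in the Sevo samples, against 22.1, 22.9 and 20.2 TPM in the Ctr samples. All Sevo samples lay above all Ctr samples, by more than the spread within either group. The log2 fold change was 0.46 ± 0.10 (SE; 95% interval 0.22 to 0.70; limma unadjusted p = 0.00228, adjusted p = 0.106), the highest of all members. It stayed between 0.41 and 0.50 with each sample left out. Ndufb4 also had the lowest level of the 29 accessory members, at a mean of 26.0 TPM.

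Ndufa6, an accessory subunit of the LYR family near the quinone site, had 244, 269.7 and 289 TPM in the Sevo samples, against 213, 224 and 197 TPM in the Ctr samples. The groups did not overlap, and the log2 fold change was 0.34 ± 0.093 (SE; limma adjusted p = 0.133). Ndufs7, the core subunit that holds cluster N2, had 126.5, 113 and 135 TPM in the Sevo samples, against 104, 101 and 103 TPM in the Ctr samples. The Ctr samples were tightly grouped and all lay below the Sevo samples, with a log2 fold change of 0.28 ± 0.091 (SE; limma adjusted p = 0.175). Its unadjusted p was 0.0555 without Ctr replicate 2.

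Ndufs3, a core subunit of the peripheral arm, went the other way. It had 11.9, 11.8 and 6.67 TPM in the Sevo samples, against 13.6, 13.8 and 17.9 TPM in the Ctr samples. The groups did not overlap, and Sevo replicate 3 and Ctr replicate 3 lay farthest apart. The log2 fold change was -0.56 ± 0.23 (SE; 95% interval -1.09 to -0.033; limma unadjusted p = 0.040, adjusted p = 0.236). It was -0.31 without Sevo replicate 3 and -0.44 without Ctr replicate 3, and the unadjusted p was 0.142 at most with a sample left out. The level of Ndufs3 was also apart, at a mean of 12.6 TPM, since the other 6 core subunits had means of at least 60.5 TPM. An 88-base stretch of its exons overlaps Kbtbd4 on the opposite strand and its part in these values was not tested.

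Ndufa4, the most abundant of the 36, had 515, 516 and 499 TPM in the Sevo samples, against 472, 506 and 419 TPM in the Ctr samples. Its protein has since been placed in complex IV, and its groups overlapped (log2 fold change 0.13 ± 0.087, SE, and 0.061 without Ctr replicate 3). Ndufa7, an accessory subunit and the next in level, had 322, 349.7 and 326 TPM in the Sevo samples, against 288, 323 and 257 TPM in the Ctr samples. The lowest Sevo value lay just under the highest Ctr value (log2 fold change 0.21 ± 0.098, SE, and 0.12 without Ctr replicate 3). Ndufs1, the largest core subunit, had a log2 fold change of -0.15 ± 0.11 (SE) and overlapping groups, the lowest value of complex I after Ndufs3.

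Complex II, succinate dehydrogenase, joins the citric acid cycle to the chain, and its 4 subunits split into 2 pairs. The median log2 fold change was -0.019, with 2 above 0, and -0.054 without Ctr replicate 3, also with 2 above 0. Sdha, the flavoprotein that oxidizes succinate, had 111, 102 and 106 TPM in the Sevo samples, against 122, 117 and 113 TPM in the Ctr samples. Sdhc, a membrane anchor, had 107, 105 and 103 TPM in the Sevo samples, against 124, 110.0 and 117 TPM in the Ctr samples. In both, all Sevo samples lay below all Ctr samples, and together with Ndufs3 these were the 3 members that did so. The log2 fold changes were -0.14 ± 0.080 for Sdha and -0.15 ± 0.082 for Sdhc (SE), with limma adjusted p-values of 0.367 and 0.358.

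Sdhb, the iron-sulphur subunit, had 168, 171 and 169 TPM in the Sevo samples, against 162, 167 and 143 TPM in the Ctr samples. Sdhd, the other membrane anchor, had 135.5, 121 and 128 TPM in the Sevo samples, against 113, 122 and 105 TPM in the Ctr samples. The Sdhb groups did not overlap, but Sevo replicate 1 and Ctr replicate 2 were within 2 TPM of each other, and the Sdhd groups overlapped. Their log2 fold changes were 0.11 ± 0.085 and 0.17 ± 0.092 (SE), with limma adjusted p-values of 0.532 and 0.344. Without Ctr replicate 3 they were 0.041 for Sdhb and 0.12 for Sdhd. None of the 4 passed an unadjusted p of 0.05. Each kept its sign with every sample left out, but groups without overlap must do so, and only Sdhd could have changed.

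Within a sample, a ratio does not depend on a scaling that multiplies all genes by the same factor. Quantile normalization and a length correction can change it. The ratio of Sdhb to Sdha was 1.52, 1.67 and 1.59 in the Sevo samples, against 1.32, 1.42 and 1.27 in the Ctr samples. The ratio of Sdhd to Sdhc was 1.27, 1.15 and 1.23 in the Sevo samples, against 0.912, 1.11 and 0.902 in the Ctr samples. Neither ratio overlapped between the groups. Both were formed after the values of the 4 genes had been seen and are given as a description, with no test. The joined exons of Sdhb and Sdhd have 2239 and 1231 bases, against 4126 and 3250 for Sdha and Sdhc. The part of length in these ratios was not tested.

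**Figure D4:**
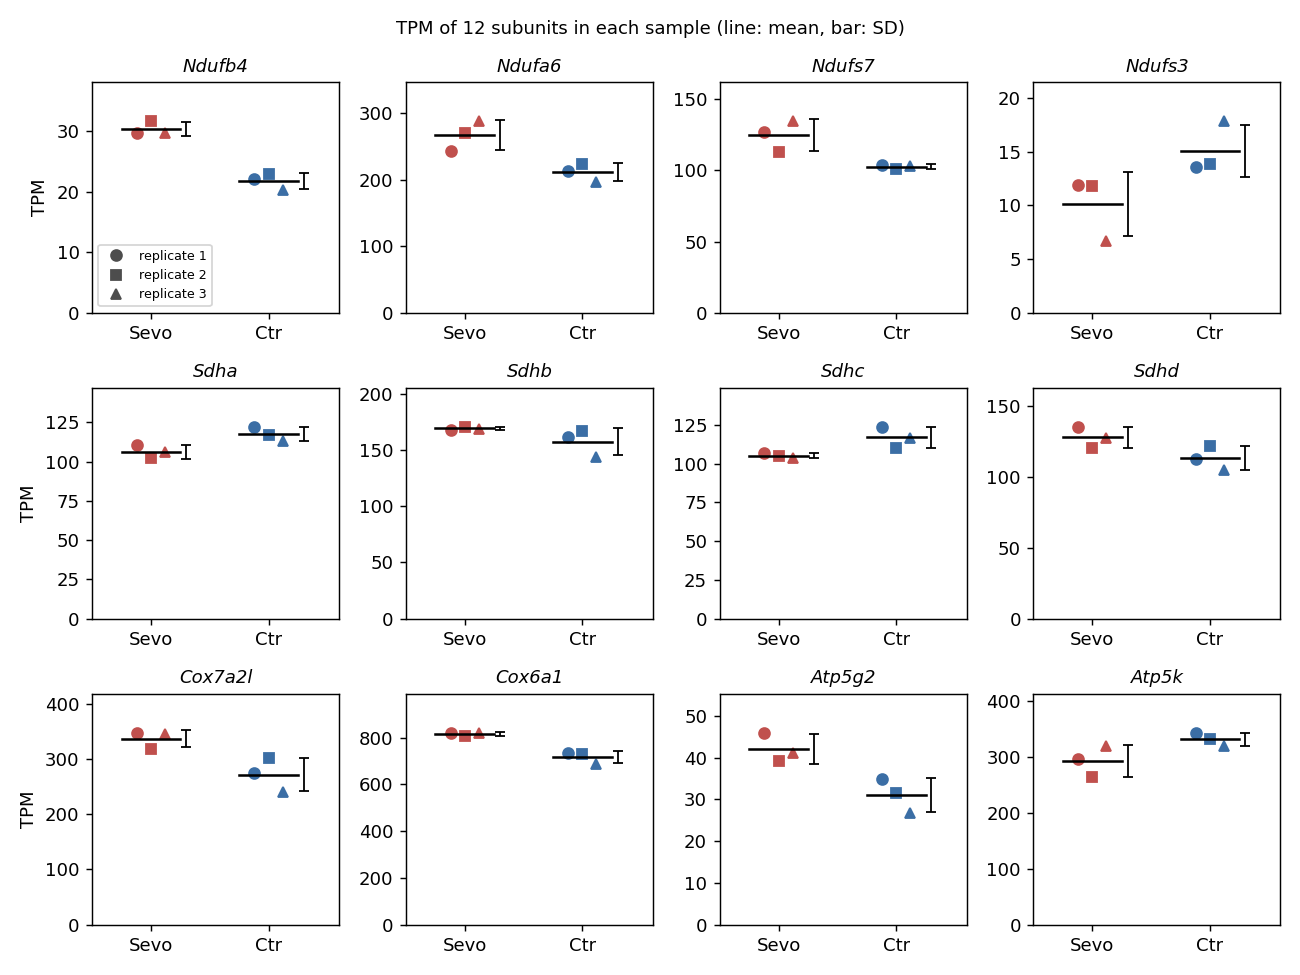
TPM of 12 members in each sample, Sevo left of Ctr, with symbols for the replicates, lines for the means and bars for the SD; every axis starts at 0. Ndufb4, Ndufa6, Ndufs7, Sdhb, Cox7a2l, Cox6a1 and Atp5g2 have all Sevo samples above all Ctr samples, Ndufs3, Sdha and Sdhc have them all below, and in Sdhd and Atp5k the groups overlap.

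Complex III, the cytochrome bc1 complex, had a median log2 fold change of 0.062 over 8 members, with 5 above 0. Without Ctr replicate 3 the median was 0.028, also with 5 above 0. None passed an unadjusted p of 0.05 in either direction. Uqcrfs1, the Rieske iron-sulphur protein, had 149.8, 148 and 163 TPM in the Sevo samples, against 139, 142 and 129.5 TPM in the Ctr samples. Its groups did not overlap, and it had the highest value of the complex, at 0.17 ± 0.083 (SE; limma adjusted p = 0.316). Uqcrc2, a core subunit that flanks the catalytic centre, was the other member with all Sevo samples above all Ctr samples, with a log2 fold change of 0.097, and of 0.050 without Ctr replicate 3.

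The most abundant members of complex III were small subunits with overlapping groups. Uqcrh, the hinge protein, had 613, 563 and 561 TPM in the Sevo samples, against 543, 589 and 479 TPM in the Ctr samples. Uqcr10, a small supernumerary subunit, had 346, 333 and 385 TPM in the Sevo samples, against 367, 402 and 313 TPM in the Ctr samples. Their log2 fold changes were 0.11 ± 0.094 for Uqcrh and -0.020 ± 0.11 for Uqcr10 (SE), and 0.033 and -0.12 without Ctr replicate 3. Uqcrb, a ubiquinone-binding subunit, had the lowest value, at -0.094 ± 0.098 (SE), and its groups overlapped as well.

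Complex IV, cytochrome c oxidase, held 3 of the 12 members that were higher at an unadjusted p under 0.05, and its 14 members had a median of 0.055, with 9 above 0. Without Ctr replicate 3 the median was -0.012, with 6 above 0. Cox7a2l, known for its role in joining complexes III and IV into supercomplexes, had 348, 319 and 344 TPM in the Sevo samples, against 274, 301 and 241 TPM in the Ctr samples. The groups did not overlap, with a log2 fold change of 0.31 ± 0.099 (SE; 95% interval 0.085 to 0.54; limma adjusted p = 0.163), and the unadjusted p was 0.0426 at most with a sample left out.

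The 2 most abundant members of complex IV were also apart between the groups. Cox4i1, the ubiquitous form of the largest nuclear-encoded subunit, had 925, 849 and 898 TPM in the Sevo samples, against 783, 819 and 717 TPM in the Ctr samples. Cox6a1, a subunit of the dimer interface, had 819, 806 and 821 TPM in the Sevo samples, against 732, 731 and 687 TPM in the Ctr samples. Neither overlapped, and the spread of Cox6a1 in the Sevo group was 8.20 TPM (SD, n = 3). The log2 fold changes were 0.21 ± 0.080 and 0.19 ± 0.068 (SE), with limma adjusted p-values of 0.221 and 0.202. Without Ctr replicate 3 the unadjusted p was 0.0883 for Cox4i1 and 0.0599 for Cox6a1, and both also exceeded 0.05 without Ctr replicate 1, Sevo replicate 1 or Sevo replicate 3. An overlap of 154 bases with Emc8 on the opposite strand applies to Cox4i1.

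Several subunits of complex IV exist as tissue forms encoded by separate genes, and the fetal cortex expressed mainly the ubiquitous ones. Cox4i2, the lung-enriched form induced by low oxygen, had 1.76, 1.23 and 1.79 TPM in the Sevo samples, against 1.37, 2.87 and 0.97 TPM in the Ctr samples. It thus made up a mean of 0.199% of Cox4i1 and Cox4i2 together. The testis form Cox6b2 had 5.52, 8.06 and 4.31 TPM in the Sevo samples, against 4.39, 13.1 and 4.15 TPM in the Ctr samples. Its highest value, like that of Cox4i2, was in Ctr replicate 2, the library with choroid plexus and meningeal markers, and without it the log2 fold change of Cox6b2 was 0.37 instead of -0.11. The part of those cells in this was not tested. Without Ctr replicate 3 the log2 fold change was -0.36 for Cox6b2, and for Cox4i2 it was -0.23 instead of -0.024.

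The forms of heart and skeletal muscle were low or listed at 0. Cox7a1 had 1.90, 1.91 and 1.57 TPM in the Sevo samples, against 1.71, 1.90 and 0.36 TPM in the Ctr samples, while its ubiquitous counterpart Cox7a2 averaged 229.9 ± 4.55 TPM in the Sevo group and 217.5 ± 19.1 TPM in the Ctr group (SD, n = 3 each). The log2 fold change of Cox7a1 rested on Ctr replicate 3, at 0.34 with it and -0.0076 without it. Cox6a2 was listed at 0 in 5 samples and at 0.14 TPM in Ctr replicate 1, and Cox8b at 0 in all. Cox8a, the ubiquitous form, averaged 546 ± 17.0 TPM in the Sevo group and 536 ± 30.0 TPM in the Ctr group, a log2 fold change of 0.030 ± 0.075 (SE). Cox6b1, the form paired with Cox6b2, was at -0.028 ± 0.088 (SE). Leaving out Ctr replicate 3 gave -0.016 for Cox8a and -0.084 for Cox6b1. Ndufa4l2, a paralogue of Ndufa4 known as a target of hypoxia-inducible factor, had 8.47, 6.48 and 5.74 TPM in the Sevo samples, against 8.36, 9.46 and 7.21 TPM in the Ctr samples, and the groups overlapped (log2 fold change -0.25 ± 0.18, SE).

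**Figure D5:**
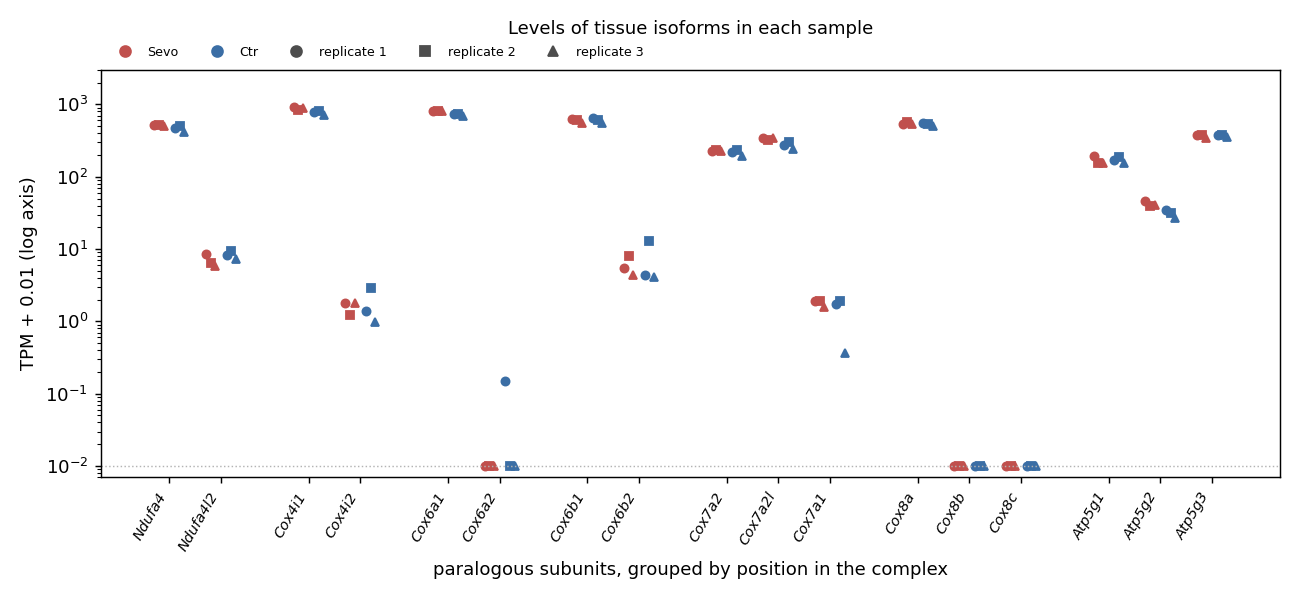
TPM + 0.01 on a log axis of paralogous subunits in each sample, Sevo left of Ctr for each gene; the dotted line marks genes listed at 0. Cox4i1, Cox6a1, Cox6b1, Cox7a2 and Cox8a lie above their tissue forms in every sample, and of the Atp5g genes Atp5g3 is the highest and Atp5g2 the lowest in every sample.

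Complex V, the ATP synthase, had a median log2 fold change of 0.034 over 17 members, with 11 above 0, and of -0.046 without Ctr replicate 3, with 8 above 0. The 5 members of the F1 head, which makes ATP, all had values above 0, with a median of 0.147, but 4 of 5 without Ctr replicate 3. The 12 other members, of the membrane part, the stalk and associated factors, had a median of 0.00011. Without Ctr replicate 3 these medians were 0.087 and -0.048.

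Atp5b, the catalytic beta subunit and the most abundant of all 79 members, had 1483, 1642 and 1482 TPM in the Sevo samples, against 1624, 1550.2 and 1404 TPM in the Ctr samples. The groups overlapped fully, with a log2 fold change of 0.0097 ± 0.085 (SE; 95% interval -0.19 to 0.21), and of -0.049 without Ctr replicate 3. Atp5c1, the gamma subunit of the central stalk, had 354, 369 and 396 TPM in the Sevo samples, against 324, 343 and 292 TPM in the Ctr samples. All Sevo samples lay above all Ctr samples, with a log2 fold change of 0.22 ± 0.089 (SE; limma adjusted p = 0.229). Without Ctr replicate 3 it was 0.16, with an unadjusted p of 0.116. Atp5mpl, a small membrane subunit and next to Atp5b in level, had 527, 581 and 593 TPM in the Sevo samples, against 527, 549.8 and 485 TPM in the Ctr samples, and these groups overlapped (log2 fold change 0.12, and 0.074 without Ctr replicate 3).

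The c subunit, which forms the rotating ring, is encoded by Atp5g1, Atp5g2 and Atp5g3, whose proteins differ only in the part that is cut off on import. Atp5g2 had 46.0, 39.1 and 41.0 TPM in the Sevo samples, against 34.9, 31.5 and 26.8 TPM in the Ctr samples. The groups did not overlap, with a log2 fold change of 0.43 ± 0.13 (SE; 95% interval 0.14 to 0.72; limma unadjusted p = 0.00969, adjusted p = 0.146), and the unadjusted p was 0.0419 at most with a sample left out. The other c-subunit genes were more abundant and did not show this. Atp5g3 averaged 367 ± 23.5 TPM in the Sevo group and 372 ± 11.0 TPM in the Ctr group, and Atp5g1 averaged 167 ± 22.8 TPM in the Sevo group and 172 ± 16.9 TPM in the Ctr group (SD, n = 3 each). As a share of the 3 genes, Atp5g2 took 7.42%, 6.84% and 7.65% in the Sevo samples, against 5.95%, 5.28% and 4.96% in the Ctr samples, which do not overlap. Their coding sequences are alike in part, so the split of reads among them is uncertain.

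Atp5k, the e subunit of the membrane part, which takes part in dimer formation, had 296, 263 and 319.8 TPM in the Sevo samples, against 343, 331 and 319 TPM in the Ctr samples. The groups overlapped by a single pair of nearly equal values, Sevo replicate 3 and Ctr replicate 3. The log2 fold change of -0.18 ± 0.091 (SE; limma adjusted p = 0.325) was the lowest of the complex.

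None of the nuclear-encoded genes described next, which the symbols above leave out, passed an unadjusted p of 0.05. Cyc1, cytochrome c1 of complex III, had a log2 fold change of -0.074 ± 0.078 (SE), and Cycs, cytochrome c, of -0.12 ± 0.11 (SE). Atpif1, an inhibitor of complex V, was the most abundant of these genes, at 833, 841 and 877 TPM in the Sevo samples, against 858, 831 and 726 TPM in the Ctr samples, and its groups overlapped. Usmg5, a small subunit of complex V, averaged 691 ± 61.5 TPM in the Sevo group and 633 ± 13.1 TPM in the Ctr group (SD, n = 3 each), with overlap. Ndufab1, the acyl carrier of complex I, had a log2 fold change of -0.19 ± 0.12 (SE).

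Assembly factors, which build the complexes but are not part of them, had a median log2 fold change of -0.13 for complex I (15 tested), 0.16 for complex II (4), -0.024 for complex III (6), -0.085 for complex IV (22) and 0.078 for complex V (3). At an unadjusted p under 0.05, 0 were higher and 1 lower for complex I, 1 and 1 for complex II, 0 and 0 for complexes III and V, and 1 and 2 for complex IV, where 6.56% of all tested genes were higher and 12.8% lower. Tmem126b, needed for the membrane arm of complex I, had 10.9, 8.91 and 9.64 TPM in the Sevo samples, against 14.95, 15.7 and 14.0 TPM in the Ctr samples. The groups did not overlap (log2 fold change -0.56 ± 0.13, SE; limma adjusted p = 0.109). For complex II, Sdhaf4, which binds Sdha during assembly, had 53.6, 67.6 and 64.9 TPM in the Sevo samples, against 48.4, 47.1 and 47.0 TPM in the Ctr samples. Sdhaf2, which helps to attach the flavin to Sdha, had 32.0, 21.3 and 31.2 TPM in the Sevo samples, against 38.1, 39.7 and 41.3 TPM in the Ctr samples. Neither overlapped, with log2 fold changes of 0.37 ± 0.11 and -0.50 ± 0.16 (SE) in opposite directions and limma adjusted p-values of 0.148 and 0.166.

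Of 12 tested transcription factors and coactivators that drive mitochondrial gene expression, none passed an adjusted p of 0.05 by limma. At an unadjusted p under 0.05, 4 were lower and 0 higher, against 12.8% lower and 6.56% higher of all tested genes, and in 6 all Sevo samples lay below all Ctr samples, against 17.7%. Their median log2 fold change was -0.23, and -0.22 without Ctr replicate 3. Pprc1, a coactivator related to PGC-1alpha, had 9.51, 15.9 and 8.15 TPM in the Sevo samples, against 20.2, 26.2 and 24.95 TPM in the Ctr samples. The groups did not overlap (log2 fold change -1.07 ± 0.23, SE; limma adjusted p = 0.103). Tfam, which packages and transcribes mitochondrial DNA and was the most abundant of this list, overlapped between the groups, at -0.070 ± 0.13 (SE). Ppargc1a, which encodes PGC-1alpha, had the highest value, 0.11 ± 0.23 (SE), at a mean level near 2 TPM in both groups. Nrf1 itself had 28.8, 28.2 and 38.2 TPM in the Sevo samples, against 36.3, 38.2 and 40.1 TPM in the Ctr samples, and these overlapped. Gabpa, Gabpb1 and Gabpb2, which encode GABP, were among the 6 genes with all Sevo samples below all Ctr samples. Their log2 fold changes were -0.16, -0.18 and -0.59, with limma adjusted p-values of 0.444, 0.369 and 0.133.

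The 14 citric acid cycle genes, whose products feed complexes I and II, had a median log2 fold change of -0.073, with 1 above 0, and at an unadjusted p under 0.05 none was higher and 4 were lower, against 6.56% higher and 12.8% lower of all tested genes. Ogdh, a subunit of the 2-oxoglutarate dehydrogenase complex, had 35.2, 33.0 and 37.3 TPM in the Sevo samples, against 48.9, 38.0 and 51.1 TPM in the Ctr samples. Its groups did not overlap (log2 fold change -0.37 ± 0.13, SE; limma adjusted p = 0.195), and it had the lowest value of the list. Mdh2, malate dehydrogenase and the most abundant of the list, was at -0.028 ± 0.073 (SE), and Sucla2, of succinyl-CoA synthetase, had the highest value, at 0.076 ± 0.089 (SE).

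The 13 subunits encoded in mitochondrial DNA summed to 82427, 87628 and 78309 TPM in the Sevo samples, against 90558, 80023 and 78203 TPM in the Ctr samples, and these sums overlapped. Their median log2 fold change was -0.041, with 2 higher at an unadjusted p under 0.05 and 3 lower, where 6.56% and 12.8% of all tested genes were. The listed level differed widely within the complexes they share. mt-Atp8 had a mean of 44020 TPM, the highest of all tested genes, whereas mt-Atp6, whose reading frame overlaps it, had 482, 662 and 410.1 TPM in the Sevo samples, against 219.7, 128 and 387 TPM in the Ctr samples. The mt-Atp6 groups did not overlap, with a log2 fold change of 1.19 ± 0.37 (SE; limma adjusted p = 0.157). mt-Co2 had 104, 130.4 and 109 TPM in the Sevo samples, against 178, 213 and 194 TPM in the Ctr samples. These did not overlap, with a log2 fold change of -0.77 ± 0.11 (SE; limma adjusted p = 0.0746). mt-Co1, also of complex IV and second in level on this list, averaged 14460 ± 1203 TPM in the Sevo group and 11990 ± 829.9 TPM in the Ctr group (SD, n = 3 each). Mitochondrial transcripts adjoin or overlap each other and have nuclear copies, so how reads were split among them is uncertain.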

How the data were processed

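RNA of the fetal cortex was measured in 3 Sevo and 3 Ctr samples, grouped by their labels. The authors deposited TPM per gene and sample. The tool behind these values was not given in the sources used here, but Bowtie 0.12.2, edgeR (no version) and the builds mm8 and mm10 are listed in the submitters' processing notes. TPM keep no depth, so the read number per sample and the counting error are unknown, and the count test named in the study's methods could not be run. All sample columns were used. The table has 56198 entries, of which 662 have no gene name. A further 27 names turned into dates were restored from their identifiers.

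The 14518 named genes whose average reached 1 TPM were compared as log2(TPM + 1), with a pseudocount of 1, by limma 3.58.1 in R 4.3.3 (two-sided, prior following abundance, Benjamini-Hochberg over all tested genes). The fold changes are on this scale, which understates those of low genes. The fit was tested on simulated data first. Members and lists were chosen with earlier results of these data known, so lists are described by counts and medians, with no test of a list.

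Members were named by a rule: per complex the 2 most abundant and the highest and lowest log2 fold change, all Sdh genes, tissue isoforms, and up to 6 members per direction with an unadjusted p under 0.05 and groups without overlap. Of each related list, the 2 most abundant and the highest and lowest could be named. Ndufs1, Uqcrc2, Atp5c1, Nrf1, Gabpa, Gabpb1, Gabpb2 and Ndufab1, outside the rule, were named after their values were seen. The values of 1 member are not reported here. Positions and exon lengths came from GENCODE M21 (GRCm38), promoters from RefSeq (GRCm38.p6). Alternatives were pseudocounts of 0.1 and 0.01, median centring, quantile normalization, no filter on low values or a minimum of 5 TPM, rescaling without mitochondrial and haemoglobin genes, a length correction, sample weights, eBayes without trend or robust, the replicate number as a block, and each sample left out. Rescaling without unnamed entries and centring on the members' median were added after the data were seen. Python 3.11.15, pandas 2.3.3, numpy 2.4.6 and matplotlib 3.10.9 were used.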

Additional observations from a re-analysis of the deposited data

How the results depend on the processing

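No member passed an adjusted p of 0.05 from limma under any alternative run. Over all tested genes 1 passed in the full data, 2 with sample weights and 1 to 7 with a sample left out. Members higher at an unadjusted p under 0.05 were 12 in the full data, 24 with median centring, 5 without the eBayes trend, 4 with centring on the members' median and 5 to 12 with a sample left out. Members lower were 1 in the full data, 2 with the length correction or centring on the members' median, 0 with median centring, quantile normalization or no filter, and 0 to 1 with a sample left out. With a sample left out, 38 to 61 members lay above 0, and with centring on the members' median 36. Median centring moved the median log2 fold change from 0.041 to 0.14 over all members, and to 0.15, 0.078, 0.16, 0.15 and 0.13 for complexes I to V. With a sample left out it was -0.0087 to 0.079 over all members, -0.019 to 0.078 for complex I, -0.054 to 0.0096 for complex II, 0.028 to 0.085 for complex III, -0.012 to 0.17 for complex IV and -0.046 to 0.068 for complex V.

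With the replicate number as a block, 6 members were higher at an unadjusted p under 0.05, 0 were lower, and 0 passed an adjusted p of 0.05. Same-numbered samples did not deviate together (correlations of -0.016, 0.021 and 0.015 across genes). The labels do not say what they share beyond the number, and a shared batch was not tested.

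Of 30 named members, 22 kept their direction in all 14 alternatives that leave out no sample. Median centring reversed Atp5g1 (0.056), Atp5g3 (0.075), Cox4i2 (0.073), Cox6b1 (0.069), Uqcr10 (0.078) and Uqcrb (0.0031). Quantile normalization reversed Atp5b (-0.10) and Atp5g1 (0.013), and the length correction Cox8a (-0.032) and Atp5g1 (0.030). Sample weights reversed Atp5b (-0.020) and Cox4i2 (0.019), the pseudocounts of 0.1 and 0.01 Cox4i2 (0.00041 and 0.0068), and centring on the members' median Atp5b (-0.055) and Cox8a (-0.035). With a sample left out, 9 changed direction in at least 1 subset: Atp5b (-0.049 to 0.056), Atp5g1 (-0.15 to 0.026), Atp5g3 (-0.050 to 0.032), Cox4i2 (-0.23 to 0.26), Cox6b1 (-0.084 to 0.027), Cox6b2 (-0.36 to 0.37), Cox7a1 (-0.0076 to 0.54), Cox8a (-0.016 to 0.063) and Uqcr10 (-0.12 to 0.063). The cause of these shifts was not tested. With 3 samples per group the smallest p of an exact two-sided permutation test is 0.1, and read depth is unknown.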

Other observations

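Names ending in -ps were left out of the members, and 1 of them was expressed at the level of a subunit. Ndufb1-ps, named as a pseudogene of the complex I subunit Ndufb1, had 65.8, 65.6 and 60.8 TPM in the Sevo samples, against 72.7, 73.0 and 70.3 TPM in the Ctr samples. All Sevo samples lay below all Ctr samples, with a log2 fold change of -0.17 ± 0.084 (SE; limma adjusted p = 0.322). The other -ps names of these families had at most 1.81 TPM in any sample.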
